A study of Mus musculus with 12 samples.

Results

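Renal tubular epithelial cells (TECs) collected after ischemia-reperfusion injury (IRI) were compared between mice given glutamine and mice given vehicle. The comparison takes 6 of the 12 samples of the series, 3 glutamine libraries (replicates 1, 2 and 3) and 3 vehicle libraries (replicates 3, 4 and 5). It is described across the genes other than those the study discusses by name in its text, leaving out 3 classes of symbols, namely sensory receptors, Rik genes and predicted genes. Genes that stand only in the study's own table of differential genes from these libraries, such as Cbr1 and AU021092, were kept. Of 50433 gene symbols in the table, 21095 belonged to this set. Of these, 4455 had no count in any library, 4836 had counts but were removed by the expression filter, and 11804 were tested. The tested genes are a selection by level, and statements on them do not cover the genes below the filter. The fit itself ran on 14734 genes, the others being 45 genes discussed by the study, 295 sensory receptors, 613 Rik genes and 1977 predicted genes. Symbols of chromosomes X and Y and of the mitochondrial genome were not analysed here.

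All mice were wild-type male C57BL/6J animals of 8 to 12 weeks in which both renal pedicles had been clamped, so vehicle cells were injured as well and no uninjured group enters here. Glutamine was given intravenously as the dipeptide alanyl-glutamine, and vehicle mice received saline. The study's sources time the dose differently, at 15 minutes after reperfusion in one place and at 4 hours in another. Cells were collected 24 hours after IRI and sorted as negative for CD45, the leukocyte surface protein, and positive for Prominin-1, an apical membrane protein of tubular epithelium. For its cultured cells, the paper describes an antibody to this protein as specific to proximal tubules. In the libraries used here, markers of further tubule segments were also present, as given below. The labels give no animal, cage or batch for a library, so p-values measure the spread between these samples.

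TECs line the nephron and reabsorb most of what the glomerulus filters. Proximal tubule cells depend on mitochondrial respiration and are the most sensitive to ischemia. Injured cells lose transport functions, raise antioxidant and heat shock defenses, secrete injury proteins such as osteopontin, and in part re-enter a growth programme during repair. Glutamine feeds the tricarboxylic acid cycle, ammonia formation and glutathione synthesis.

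The 6 libraries held between 5397370 counts in glutamine replicate 2 and 10223461 in vehicle replicate 4, so low genes are least precise in glutamine replicate 2. Levels are given as CPM, counts relative to library size after trimmed-mean (TMM) scaling, in the order vehicle replicates 3, 4 and 5 and then glutamine replicates 1, 2 and 3. CPM is not divided by transcript length, so it compares libraries and not genes. Log2 fold changes are glutamine over vehicle, with a standard error from edgeR's quasi-likelihood test. The 3 left-out classes took 19.7, 22 and 24.3% of all counts with vehicle and 30.0, 28.0 and 31.8% with glutamine, without overlap between the groups (two-sided p = 0.1 by exact permutation, where 3 against 3 libraries can go no lower). This shift moves with treatment beside every result below and its part in them was not tested. In a bulk library, fewer cells of a type and less RNA per cell cannot be told apart.

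The labelled cell type carried its markers. Prom1, the sort marker, lay between 64.4 and 83.2 CPM in all libraries, and Ptprc, which encodes CD45, between 0.102 and 2.73 CPM. Proximal tubule markers were present, with 1294 to 2701 CPM for the phosphate transporter Slc34a1 and 136 to 229 CPM for the endocytic receptor Lrp2. Umod, the uromodulin of the thick ascending limb, reached 993 to 2102 CPM, and the water channel Aqp2 of the collecting duct 64.8 to 224 CPM. Markers of other cells were also present. Pecam1 and Cdh5 of endothelium lay between 42.1 and 121 CPM, S100a8 of neutrophils between 6.80 and 106 CPM, and Csf1r of macrophages between 16.2 and 29.0 CPM. The hemoglobin gene Hbb-bs ranged from 197 to 1812 CPM, highest in glutamine replicate 2. The defining markers Adgre1 of macrophages, Cd3e and Cd79a of lymphocytes and Col1a1 of stroma had no count in at least 1 library and did not pass the filter. As whole lists, 14 tested endothelial genes summed to 464 to 798 CPM with vehicle and 467 to 660 CPM with glutamine, and 8 stromal genes to 38.8 to 55.3 and 51.0 to 86.3 CPM. The medians of the stromal list and of the podocyte list below, relative to all genes, changed sign with 1 library left out. The 11 tested podocyte and parietal cell genes summed to 187 to 224 CPM with vehicle and 153 to 180 CPM with glutamine, without overlap.

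No gene passed the test across all genes. At an adjusted p-value below 0.05, 0 of 14734 tested genes were called (0.0%) by the quasi-likelihood test of edgeR after Benjamini-Hochberg adjustment and 0 by limma-voom. The adjusted values began at 0.101. At an unadjusted p-value below 0.05, 569 of the 11804 genes described here were higher with glutamine and 732 were lower, against 7.23% higher and 5.52% lower among all tested genes. DESeq2 called 308 of all tested genes (2.09%), of which 123 belong to the genes described here, 68 higher and 55 lower. The count of calls therefore depends on the test, and differences below are given as values and not as calls.

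Taken over all 11804 genes, 45.7% had a log2 fold change above 0, against 50.6% of all tested genes, and their median was -0.05 against 0.01. The groups did not overlap, meaning that all glutamine values lay above or all below the vehicle values, in 777 genes that were higher (6.6%) and 1320 that were lower (11.2%), against 9.0% and 9.82% of all tested genes. Protein-coding genes made up 11513 of the set, with a median of -0.06. The 43 long intergenic noncoding RNAs had a median of 0.22, and 30 of them were higher. A change beyond 2-fold was estimated for 487 genes upward and 421 downward, and 403 and 347 of these had a mean under 10 CPM. Among the 1336 genes with a mean of 100 CPM or more the numbers were 11 and 4. The balance of directions rests on the scaling. Among unadjusted p-values below 0.05, 43.7% of the genes were higher under TMM, 15.9% when only total counts were used, and 56.9% with TMM factors computed without the 3 classes. Over all tested genes the same shares were 56.7, 28.2 and 67.7%. Scaling by total counts lowered the median of all tested genes by 0.168 on the log2 scale, so differences between groups of genes below are read against that common median. Relative to it, the median of none of the 22 groups in the plot of gene groups changed sign under the scalings or with 1 library left out. Those 22 were chosen with results known. Of all 77 lists and families with a median, 26 changed sign with 1 library left out and 0 under the scalings. A scaling moves all genes nearly alike, so a median relative to all genes can hardly change with it. Other groups did so with 1 library left out and are named where they are given.

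**Figure D1:**
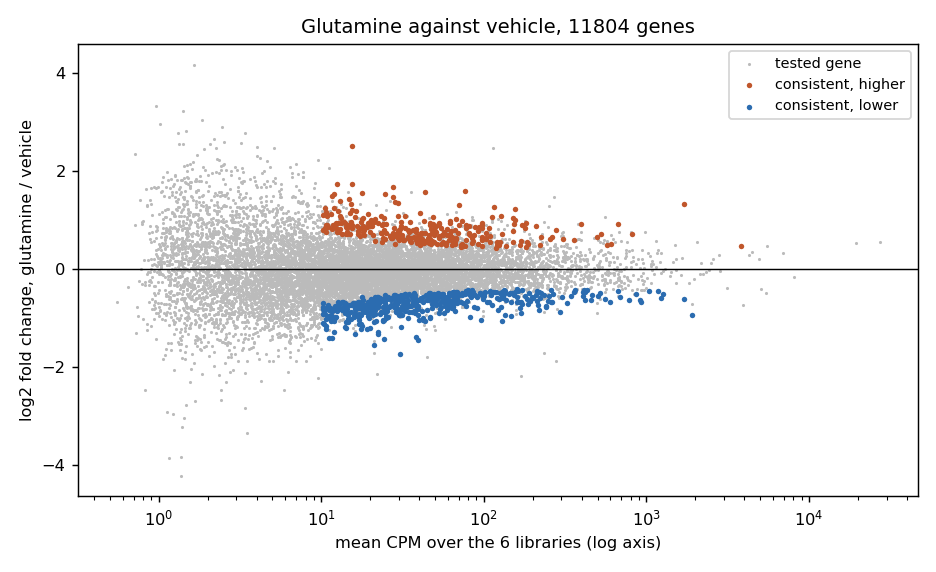
Log2 fold change (glutamine over vehicle, y axis) of the 11804 genes against their mean CPM over the 6 libraries (x axis, log scale). Each point is a gene, and colours mark the 291 higher and 472 lower genes with a mean of 10 CPM or more, groups that did not overlap and an unadjusted p-value below 0.05.

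Directions differed along transcript length. Genes were divided into 5 equal classes by longest annotated transcript. In the class with the shortest, up to 2016 bases, 38.2% were higher and the median log2 fold change was -0.15. In the class with the longest, from 5386 bases, 56.1% were higher and the median was 0.07, and the 3 classes between them had medians of -0.112, -0.065 and -0.014. Equal classes by GC content showed no such order, with medians between -0.060 and -0.045. The difference was also taken in single libraries. Over the 7475 genes with a mean of 10 CPM or more and an annotated length, the median level of the longest class minus that of the shortest, each relative to the mean of the 6 libraries, was -0.205, -0.078 and -0.041 in the vehicle libraries and 0.207, 0.076 and 0.045 in the glutamine libraries on the log2 scale. The groups did not overlap, and vehicle replicate 3 and glutamine replicate 1 lay farthest apart. The part of this length trend in the values of single groups of genes was not tested.

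**Figure D2:**
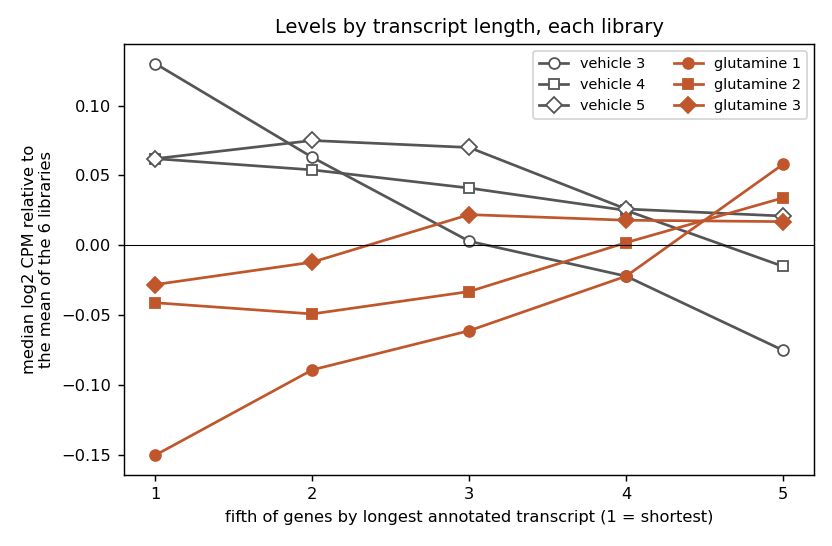
Median log2 CPM of each library relative to the mean of the 6 libraries (y axis) in 5 equal classes of genes ordered by longest annotated transcript (x axis). Each line is a library, open symbols for vehicle and filled for glutamine. Each vehicle line ends lower than it starts and each glutamine line higher, from the shortest (1) to the longest (5) class, with turns between in vehicle 5, glutamine 2 and glutamine 3.

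The 12 genes with the most counts were 9 protein-coding stress, lipid and tubule genes, the noncoding RNAs Malat1 and Rn7sk, and Cep85, a centrosomal protein gene. Per kilobase of the longest annotated transcript, the order changed, and Rn7sk, Mt2, Gpx3 and Kap came first with 14923, 13516, 12265 and 11402 CPM per kilobase. The 50 genes with the most counts took 16.6 ± 0.867% of all counts in vehicle libraries and 16.4 ± 1.66% in glutamine libraries (SD, n = 3; two-sided p = 0.8 by exact permutation).

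Malat1, a nuclear-retained noncoding RNA, had 24094, 17945 and 24800 CPM with vehicle and 39088, 36234 and 22319 CPM with glutamine. Gpx3, the secreted glutathione peroxidase made by the proximal tubule, had 16776, 11925 and 19172 CPM with vehicle and 22110, 28334 and 18989 CPM with glutamine. In both genes the highest 2 libraries were glutamine libraries, and glutamine replicate 3 lay among the vehicle values. Their log2 fold changes were 0.55 ± 0.25 and 0.54 ± 0.24 (SE), with adjusted p-values of 0.398 and 0.391 (edgeR).

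Fth1, the ferritin heavy chain that stores iron, had 7288, 6576 and 5100 CPM with vehicle and 4236, 4086 and 5209 CPM with glutamine, a log2 fold change of -0.49 ± 0.21 (SE). Plin2, the coat protein of lipid droplets, had 5112, 6407 and 5831 CPM with vehicle and 4515, 3612 and 4890 CPM with glutamine, a log2 fold change of -0.41 ± 0.20 (SE). For Plin2 the groups did not overlap, and for Fth1 vehicle replicate 5 lay below glutamine replicate 3. Spp1, the injury protein osteopontin, had 6586, 6302 and 1778 CPM with vehicle and 3967, 2768 and 2099 CPM with glutamine, so vehicle replicate 5 held the lowest value of all 6 libraries. Its log2 fold change was -0.73 ± 0.42 (SE), and -1.13 without vehicle replicate 5.

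The heat shock genes split the libraries in another way. Hsp90ab1, a cytosolic chaperone, had 4062, 3883 and 5977 CPM with vehicle and 6971, 8490 and 3645 CPM with glutamine, and its relative Hsp90aa1 had 3225, 3345 and 5282 CPM and 5604, 6494 and 2905 CPM. In both genes glutamine replicate 3 was the lowest library of all and vehicle replicate 5 the highest of its group, and the log2 fold changes were 0.46 ± 0.30 and 0.34 ± 0.31 (SE). They were 0.19 and 0.10 without glutamine replicate 2, and 0.73 and 0.61 without glutamine replicate 3.

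The metallothioneins Mt1 and Mt2, which bind zinc and copper, had overlapping groups and log2 fold changes of 0.27 ± 0.22 and 0.32 ± 0.22 (SE). Kap, an androgen-dependent protein gene of the proximal tubule, had 10350, 8472 and 6670 CPM with vehicle and 7834, 3889 and 11152 CPM with glutamine, and its log2 fold change of -0.16 ± 0.33 (SE) was 0.16 without glutamine replicate 2 and 0.00 without vehicle replicate 3. Rn7sk, the 7SK RNA that restrains transcription elongation, had a log2 fold change of 0.21 ± 0.24 (SE). Cep85 had 3654, 2949 and 3057 CPM with vehicle and 4353, 4939 and 4000 CPM with glutamine, without overlap, a log2 fold change of 0.46 ± 0.19 (SE). The lowest adjusted p-value among the 12 genes was 0.361 (edgeR).

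**Figure D3:**
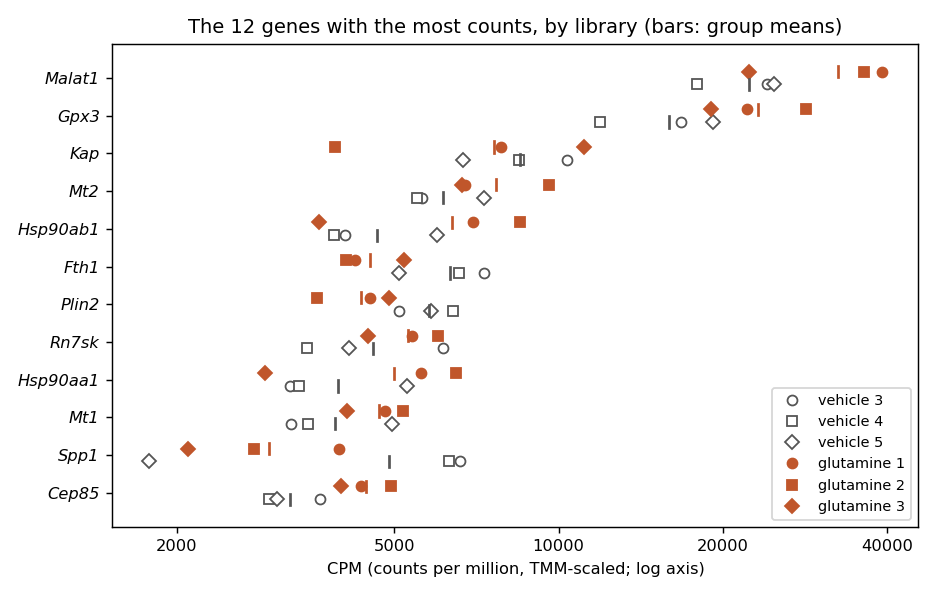
Levels of the 12 genes with the most counts (x axis, CPM, log scale) in each library. Open grey symbols are vehicle libraries, filled orange symbols glutamine libraries, and short bars the group means. Values of the groups are apart for Plin2 and Cep85 and overlap for the other 10 genes.

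Consistent differences were sought among genes with a mean of 10 CPM or more, as groups that did not overlap together with an unadjusted p-value below 0.05. Of 7509 such genes, 291 were higher and 472 lower, against 5.86% higher and 6.18% lower among all tested genes at that level. Of 1336 genes with a mean of 100 CPM or more, 47 were higher and 100 lower, against 5.17% and 7.95% of all tested genes at that level. The genes below are those with the largest fold changes in these sets, so their size is in part chosen.

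Among the lower genes, Akr1b3, the aldose reductase that turns glucose into sorbitol (chromosome 6, 34302434 to 34317478, GRCm38), had 63.1, 41.0 and 36.5 CPM with vehicle and 11, 8 and 22.4 CPM with glutamine. Its log2 fold change of -1.75 ± 0.38 (SE) was the lowest of the set, with an adjusted p-value of 0.178 (edgeR). Cbr1, a carbonyl reductase (chromosome 16, 93605853 to 93610505), had 58.0, 73.8 and 40.2 CPM with vehicle and 26.2, 16.6 and 20.1 CPM with glutamine, a log2 fold change of -1.45 ± 0.28 (SE). As the choice of genes required, every glutamine library of both genes lay below every vehicle library. Rdh11, a retinal reductase, had 15.5, 22.2 and 13.1 CPM with vehicle and 8.14, 5.20 and 5.57 CPM with glutamine, a log2 fold change of -1.42 ± 0.35 (SE).

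Other lower genes had varied roles. Fbln5, an elastic fibre protein, had 24.0, 57.2 and 13.3 CPM with vehicle and 8.62, 11 and 12.6 CPM with glutamine, and vehicle replicate 5 was just above the glutamine range. Its log2 fold change was -1.55 ± 0.46 (SE), and -0.80 without vehicle replicate 4. Mri1, an isomerase of the methionine salvage pathway, had 50.5, 32.9 and 22.5 CPM with vehicle and 13.0, 15 and 11.6 CPM with glutamine, a log2 fold change of -1.42 ± 0.32 (SE). Arvcf, a catenin of cell junctions, had 62.7, 56.0 and 47.4 CPM with vehicle and 17.5, 15.2 and 30.5 CPM with glutamine, a log2 fold change of -1.39 ± 0.29 (SE). Ptrh2, a mitochondrial peptidyl-tRNA hydrolase, Dpysl2, a microtubule regulator, Zadh2, a reductase of prostaglandins, and Slc35b2, the Golgi carrier of the sulfate donor, had log2 fold changes of -1.41, -1.34, -1.32 and -1.29. In these 4 genes vehicle replicate 5 was the lowest vehicle library. With 1 library left out, the log2 fold change of Dpysl2 ranged from -1.66 to -0.85.

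At higher levels the lower genes included cytoskeletal and redox genes. Pfn1, which encodes the actin-binding profilin (chromosome 11, 70651850 to 70654644), had 162, 195 and 167 CPM with vehicle and 103, 83.2 and 65.0 CPM with glutamine, a log2 fold change of -1.06 ± 0.22 (SE). Rab10, a GTPase of vesicle traffic, had 210, 215 and 162 CPM with vehicle and 99.4, 95.7 and 105 CPM with glutamine, a log2 fold change of -0.97 ± 0.20 (SE). Prdx1, a peroxiredoxin that removes hydrogen peroxide (chromosome 4, 116685544 to 116700822), had 2469, 2910 and 2101 CPM with vehicle and 1318, 1176 and 1384 CPM with glutamine, a log2 fold change of -0.95 ± 0.20 (SE). The 3 glutamine values of Prdx1 and of Rab10 lay close together and far below the vehicle range. S100a6, a calcium-binding protein of injured epithelium, had 241, 171 and 122 CPM with vehicle and 71.3, 105 and 103 CPM with glutamine, and Qsox1, an oxidase that forms disulfide bonds, had 345, 438 and 363 CPM and 243, 197 and 182 CPM. Their log2 fold changes were -0.94 ± 0.27 and -0.88 ± 0.20 (SE). Rnu1a1, a copy of the U1 spliceosomal RNA, had 200, 226 and 232 CPM with vehicle and 43.8, 128 and 182 CPM with glutamine, and near-identical copies could share its reads.

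Among the higher genes the largest log2 fold change was that of Hsd3b2, a 3-beta-hydroxysteroid dehydrogenase (chromosome 3, 98709255 to 98724543). It had 2.16, 6.07 and 5.58 CPM with vehicle and 25.5, 19.2 and 34.3 CPM with glutamine, a log2 fold change of 2.51 ± 0.41 (SE). Its adjusted p-value of 0.101 (edgeR) was the lowest reached and is shared with other tested genes. The gene belongs to a family of close copies on the same chromosome, and reads common to copies may be divided among them. G6pc, the glucose-6-phosphatase that ends gluconeogenesis, had 5.90, 11 and 4.57 CPM with vehicle and 11.5, 15 and 45.1 CPM with glutamine. Its log2 fold change of 1.74 ± 0.53 (SE) was 0.88 without glutamine replicate 3, the highest library. Slc7a13, an amino acid transporter of the straight proximal tubule, had 36.1, 36.4 and 41.1 CPM with vehicle and 195, 89.8 and 57.0 CPM with glutamine, a log2 fold change of 1.59 ± 0.38 (SE), and 0.95 without glutamine replicate 1. All vehicle values of Slc7a13 were alike, while the glutamine values differed from each other more than 3-fold.

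Oasl1 and Lgals9 are both known as interferon-responsive genes. Oasl1, an oligoadenylate synthetase-like protein, had 2.36, 7.94 and 6.91 CPM with vehicle and 15.4, 26.2 and 16.1 CPM with glutamine, a log2 fold change of 1.74 ± 0.45 (SE). Lgals9, the lectin galectin-9, had 4.52, 7.86 and 5.89 CPM with vehicle and 12.1, 24.8 and 14.9 CPM with glutamine, a log2 fold change of 1.49 ± 0.38 (SE). In both genes glutamine replicate 2 was highest. The same library was highest for Ripor2, a regulator of the GTPase RhoA, with 11.9, 11.7 and 16.0 CPM and then 25.6, 73.0 and 27.9 CPM, and for Car3, a carbonic anhydrase, with 22.4, 15.6 and 27.4 CPM and then 51.2, 109 and 35.8 CPM. Their log2 fold changes of 1.67 ± 0.40 and 1.58 ± 0.39 (SE) were 1.01 and 0.99 without glutamine replicate 2. Fam135b, a gene of uncertain function, had 12.2, 11.1 and 14.5 CPM with vehicle and 25.5, 49.0 and 35.3 CPM with glutamine, a log2 fold change of 1.53 ± 0.29 (SE). Clec2h, a C-type lectin, and Cep135, a centriole protein, had log2 fold changes of 1.55 ± 0.52 and 1.52 ± 0.42 (SE), both from vehicle means under 10 CPM.

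At higher levels Neat1, the noncoding RNA on which nuclear paraspeckles form (chromosome 19, 5824708 to 5845478), had 980, 878 and 1079 CPM with vehicle and 2572, 3109 and 1657 CPM with glutamine. Its log2 fold change was 1.32 ± 0.25 (SE) with an adjusted p-value of 0.149 (edgeR). Safb2, a nuclear matrix protein, had 72.6, 81.0 and 127 CPM with vehicle and 209, 273 and 174 CPM with glutamine, a log2 fold change of 1.23 ± 0.26 (SE). Rnf149, a ubiquitin ligase, had 98.6, 93.3 and 107 CPM with vehicle and 243, 224 and 145 CPM with glutamine, a log2 fold change of 1.03 ± 0.23 (SE). The highest vehicle and lowest glutamine values of these 3 genes were 1079 and 1657, 127 and 174, and 107 and 145 CPM. Acy3, an aminoacylase of the proximal tubule, had 57.6, 57.0 and 130 CPM and then 155, 157 and 204 CPM, and Acot11, a thioesterase of fatty acyl-CoA, had 59.3, 47.0 and 112 CPM and then 116, 226 and 115 CPM. Wfdc15b, a small secreted protein, had a log2 fold change of 1.25 ± 0.35 (SE). In all 3 of these, vehicle replicate 5 was the highest vehicle library and close to the lowest glutamine value.

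Of the 10 genes with the smallest unadjusted p-values, 8 are described above. AU021092, an uncharacterized gene of low level, had 7.77, 8.12 and 3.15 CPM with vehicle and 0.718, 0.400 and 0.655 CPM with glutamine, a log2 fold change of -3.36 ± 0.65 (SE) and an adjusted p-value of 0.153 (edgeR). Of the 46 genes that the rule chose for abundance, size or smallest p-value, 8 overlap another annotated gene on the same strand, among them Neat1, Rnf149, Malat1, Cep85, Spp1 and AU021092. On the other strand 11 overlap an annotated gene, among them Akr1b3, Hsd3b2, Oasl1 and Rab10, and whether the counting used strand is not given in the sources used here.

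**Figure D4:**
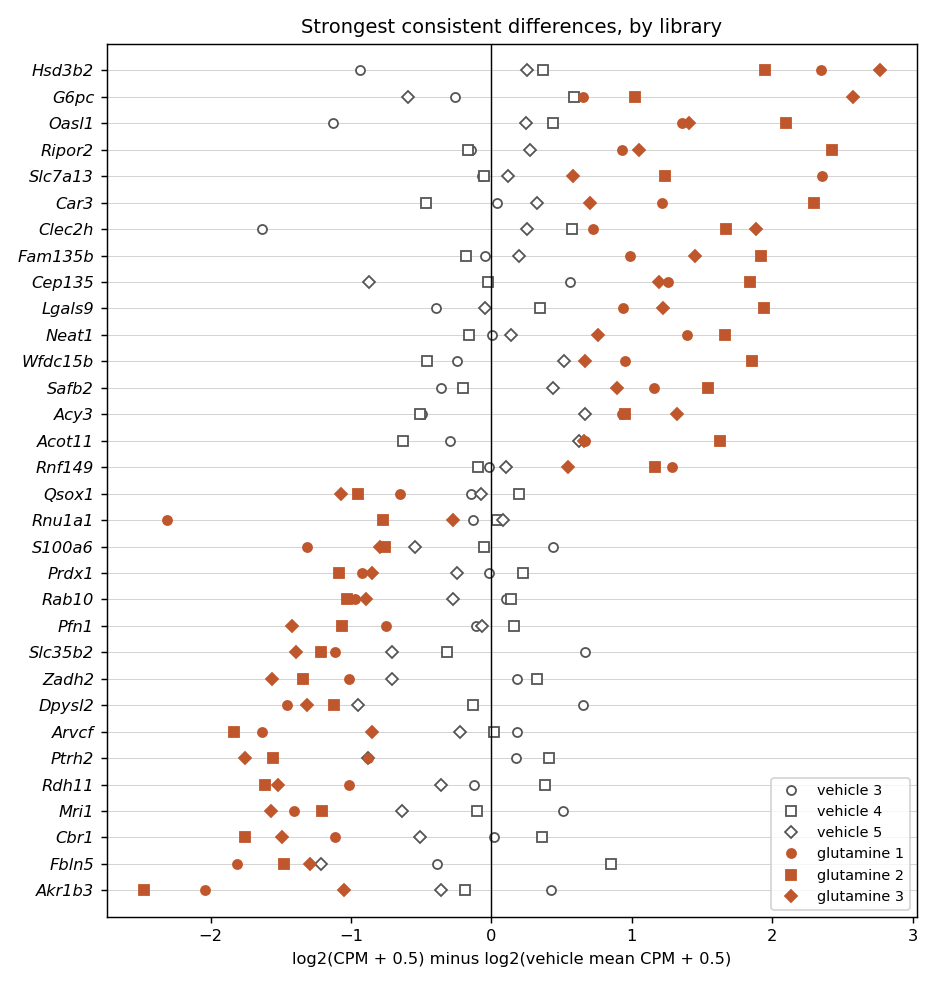
Level of each library relative to the vehicle mean (x axis, difference of log2 values with a pseudocount of 0.5 CPM) for the 32 genes with the largest consistent differences, ordered by log2 fold change (y axis). Open symbols are vehicle libraries and filled symbols glutamine libraries. The groups are apart for every gene because the genes were chosen so, and genes with a narrow gap include Fbln5, Ptrh2, G6pc and Acot11.

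Targets of NRF2, the transcription factor that switches on antioxidant and detoxification genes, were lower as a group. Of 30 tested targets other than those the study discusses, 25 were lower and 5 higher, with a median log2 fold change of -0.48 against 0.01 for all tested genes. At an unadjusted p-value below 0.05, 13 were lower and 1 was higher, against 5.52% and 7.23% of all tested genes, and in 10 the groups did not overlap downward (9.82% of all tested genes). Members such as Cbr1 stand in the study's table of differential genes from these libraries, so the list's direction is not independent evidence. Cbr1, Prdx1 and Fth1, the members with the smallest p-values or the most counts, are given above. Gclm, the regulatory subunit of glutathione synthesis, named after its values were seen, had 249, 264 and 294 CPM with vehicle and 176, 138 and 172 CPM with glutamine, a log2 fold change of -0.73 ± 0.19 (SE). Osgin1, an oxidative stress growth inhibitor named likewise, was higher, with 30.9, 43.4 and 59.0 CPM and then 75.3, 113 and 80.6 CPM.

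NRF2 binds antioxidant response elements in the promoters of its targets. The letters TGACNNNGC, searched on both strands in the 250 bases before the start, were present in 6 of 26 targets with a promoter in the RefSeq table (23.1%), in 13.4% of the promoters of tested genes and in 11.5% of all 27025 promoters. The windows of Prdx1 and Gclm are shown as examples of genes that had groups apart and hold a match. Abcc4, with a log2 fold change of -1.01, also met both conditions and is not shown. They lie at chr4:116685441-116685499 and chr3:122245398-122245456 (GRCm38.p6, RefSeq), both on the plus strand of the genome. They read 5′ to 3′ along the gene, with the matched letters in capitals, here the reverse complement of the motif.
Prdx1: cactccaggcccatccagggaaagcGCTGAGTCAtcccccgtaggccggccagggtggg
Gclm: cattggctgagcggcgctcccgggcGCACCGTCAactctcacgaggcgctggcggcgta
The first matched base lies 133 bases before the start of Prdx1 and 134 before that of Gclm. A match describes the letters and not binding.

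Iron handling genes overlap this list through the ferritins. Of 16 tested, 13 were lower and 3 higher, with a median log2 fold change of -0.38. Ftl1, the ferritin light chain, had 1558, 1342 and 1547 CPM with vehicle and 1156, 937 and 1018 CPM with glutamine, a log2 fold change of -0.52 ± 0.19 (SE). Pcbp2, an iron chaperone that also binds RNA, had 277, 314 and 308 CPM and then 215, 206 and 242 CPM, a log2 fold change of -0.44 ± 0.18 (SE). In both genes all glutamine libraries lay below all vehicle libraries.

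Lists of protein synthesis genes differed from each other. Of 81 tested cytosolic ribosomal protein genes, 77 were lower and 4 higher, with a median log2 fold change of -0.26, and in 46 the groups did not overlap downward, against 9.82% of all tested genes. All 86 genes of the family in the table took 5.46, 5.32 and 4.89% of all counts with vehicle and 3.89, 3.94 and 3.85% with glutamine (two-sided p = 0.1 by exact permutation). That total includes the 3 left-out classes, whose own share was larger with glutamine. The summed level of the 81 tested genes was 49677, 48582 and 49443 CPM with vehicle and 40410, 42536 and 40905 CPM with glutamine. Rpl17 had 814, 742 and 645 CPM with vehicle and 474, 402 and 495 CPM with glutamine, a log2 fold change of -0.68 ± 0.19 (SE), while Rpl41, with 1825, 1643 and 1642 CPM and then 1552, 1579 and 1524 CPM, had one of -0.13 ± 0.18 (SE). Rpl23 had a log2 fold change of -0.30. These genes have short transcripts, with a median of 1120 bases against 3450 for all genes described, and many processed copies in the genome whose reads cannot always be told from theirs.

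Mitochondrial ribosomal protein genes followed the same direction. Of 78 tested, 62 were lower and 16 higher, with a median log2 fold change of -0.29. Mrpl50 had 61.2, 56.7 and 50.0 CPM with vehicle and 32.3, 18.6 and 32.9 CPM with glutamine, a log2 fold change of -1.0 ± 0.26 (SE). Mrpl33 and Mrpl51 had log2 fold changes of -0.62 and -0.50, and Mrpl12 one of 0.12. Of the 20 aminoacyl-tRNA synthetases, which charge tRNAs with amino acids, 17 were lower and 3 higher, with a median of -0.34. Dars, the enzyme for aspartate, had 68.9, 57.7 and 34.9 CPM with vehicle and 29.3, 25.2 and 23.6 CPM with glutamine, and Lars, the enzyme for leucine, 25.4, 22.5 and 16.0 CPM and then 11.6, 9.81 and 11.7 CPM. Their log2 fold changes were -1.05 ± 0.27 and -0.94 ± 0.29 (SE), whereas the more plentiful Gars and Sars had -0.33 and -0.22. Higher members were more frequent in other lists. Of 34 translation initiation factors, 20 were lower and 14 higher (median -0.06), of 24 ribosome biogenesis genes 15 and 9 (-0.14), and of 9 elongation factors 6 and 3 (-0.26). In 8 ribosome biogenesis genes (33.3%) the groups did not overlap downward and in 2 (8.3%) upward, against 9.82% and 9.0% of all tested genes.

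Among protein folding and degradation genes, lists differed likewise. Of 31 proteasome subunits, 29 were lower and 2 higher, with a median log2 fold change of -0.24. Their share was 0.560 ± 0.0352% of all counts in vehicle libraries and 0.439 ± 0.0163% in glutamine libraries (SD, n = 3; two-sided p = 0.1 by exact permutation). Those counts, too, include the 3 left-out classes. Psmb5, the chymotrypsin-like catalytic subunit, had 241, 238 and 260 CPM with vehicle and 165, 169 and 174 CPM with glutamine, a log2 fold change of -0.54 ± 0.18 (SE). Psma5 had one of -0.88 ± 0.28 (SE), and the lid subunits Psmd11 and Psmd7 had -0.09 and 0.29 with overlapping groups. Of 13 subunits of the T-complex chaperonin and prefoldin, which fold actin and tubulin, 11 were lower, with a median of -0.33. Cct5 had 218, 179 and 179 CPM with vehicle and 133, 117 and 136 CPM with glutamine, a log2 fold change of -0.58 ± 0.19 (SE), Pfdn4 had -0.75 ± 0.23 (SE), and Cct8 and Pfdn2 had -0.33 and -0.31. Of 25 endoplasmic reticulum folding and stress genes, 15 were higher (median 0.11), of 26 lysosomal genes 14 (0.03), of 22 autophagy genes 10 (-0.05) and of 21 further cytosolic chaperones 8 (-0.02). The medians of the last 3 lists, relative to all genes, changed sign with 1 library left out.

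Further groups of basic cell functions had medians below that of all genes. Among 26 actin cytoskeleton genes the median log2 fold change was -0.26, and 19 were lower. Besides Pfn1, Myl12a, a myosin light chain, had 262, 220 and 212 CPM with vehicle and 114, 147 and 160 CPM with glutamine, a log2 fold change of -0.72 ± 0.21 (SE), and Actg1, the gamma actin, had -0.60 ± 0.23 (SE), while Actb, the beta actin, had -0.04 ± 0.27 (SE). Of 23 subunits and general factors of RNA polymerase II, 21 were lower, with a median of -0.23. Polr2k had 82.0, 84.8 and 75.9 CPM and then 45.4, 43.6 and 50.7 CPM, a log2 fold change of -0.80 ± 0.20 (SE), and Polr2e had -0.56 ± 0.20 (SE). Polr2f and Polr2l were near 0, at -0.00 and -0.05. Of 24 coat and secretory traffic genes, 21 were lower, with a median of -0.21, and among them Arf4 and Arf1 had -0.43 and -0.32 and Arfgap3 had 0.69.

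Of 39 splicing factors, 27 were lower and 12 higher, with a median log2 fold change of -0.22. Members moved in opposite directions. Srsf1 had 62.5, 65.0 and 44.2 CPM with vehicle and 38.2, 23.8 and 20.6 CPM with glutamine, a log2 fold change of -1.05 ± 0.28 (SE), and its relative Srsf11 had 389, 339 and 656 CPM and then 918, 1047 and 663 CPM, one of 0.93 ± 0.28 (SE). U2af1, which recognizes the end of introns, had -0.12. Of 20 sterol synthesis enzymes, 17 were lower, with a median of -0.30, and in 5 the groups did not overlap downward, against 9.82% of all tested genes. Fdps, the farnesyl diphosphate synthase, had 16.7, 14.8 and 8.83 CPM with vehicle and 6.70, 4.80 and 6.01 CPM with glutamine, a log2 fold change of -1.20 ± 0.37 (SE), Sc5d had -0.94 ± 0.30 (SE), and the entry enzyme Hmgcs1 had -0.35 with overlapping groups.

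**Figure D5:**
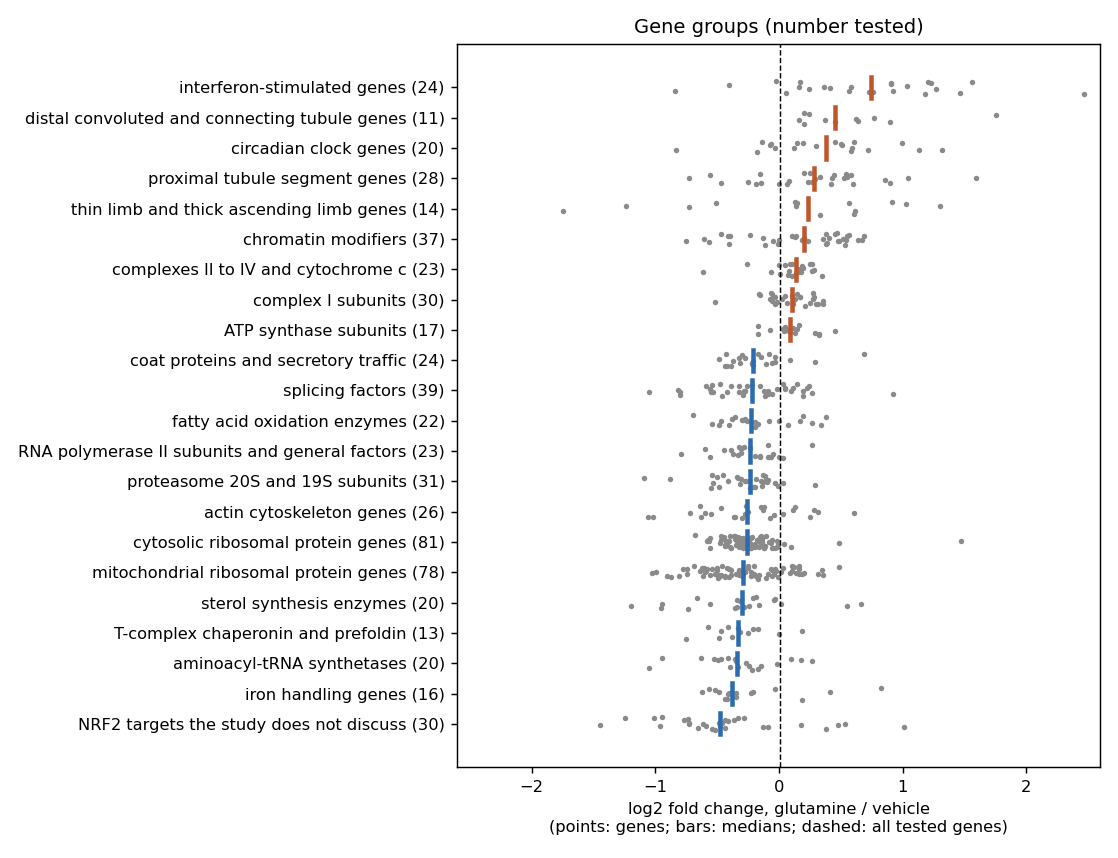
Log2 fold changes (glutamine over vehicle, x axis) of the tested genes of 22 groups (y axis, number tested in brackets). Points are genes, coloured bars the medians of the groups, and the dashed line is the median of all tested genes, 0.01. Medians run from -0.48 for NRF2 targets to 0.74 for interferon-stimulated genes.

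Interferon-stimulated genes had the highest median of the 22 plotted groups. Of 24 tested, 21 were higher and 3 lower (median log2 fold change 0.74), and 7 were higher at an unadjusted p-value below 0.05, against 7.23% of all tested genes. In 3 of 24 the groups did not overlap upward, against 9.0% of all tested genes. As a share of all counts the list took 0.0577, 0.0534 and 0.0639% with vehicle and 0.0505, 0.0958 and 0.0885% with glutamine (two-sided p = 0.4 by exact permutation). Glutamine replicate 1 lay below every vehicle library. Rsad2, the antiviral protein viperin, had 22.8, 22.1 and 59.6 CPM with vehicle and 39.0, 276 and 263 CPM with glutamine, a log2 fold change of 2.46 ± 0.63 (SE) and an adjusted p-value of 0.212 (edgeR). Glutamine replicates 2 and 3 stood far above the other 4 libraries, and glutamine replicate 1 lay below vehicle replicate 5. Stat2, which carries the interferon signal to the nucleus, had 31.9, 36.9 and 32.4 CPM with vehicle and 85.2, 64.4 and 40.2 CPM with glutamine, a log2 fold change of 0.91 ± 0.28 (SE), and there glutamine replicate 1 was the highest. B2m, the invariant chain of MHC class I, had 245, 255 and 340 CPM and then 212, 300 and 317 CPM, a log2 fold change of -0.02 ± 0.22 (SE).

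Interferon-stimulated response elements, taken as GAAA, any 2 bases and GAAA again and searched on both strands of the same 250 bases, were present in 11 of 20 of these genes with a promoter in the table (55.0%), in 3.2% of the promoters of tested genes and in 3.5% of all promoters. The share describes a list of known interferon-stimulated genes and not these libraries. In the 11 genes with a match, log2 fold changes ran from -0.84 for Bst2 to 2.46 for Rsad2. The windows of Rsad2, Stat2 and B2m are shown because the elements are alike while the log2 fold changes differ. They lie at chr12:26456538-26456597, chr10:128270251-128270310 and chr2:122147523-122147582 (GRCm38.p6, RefSeq), with Rsad2 on the minus strand and the others on the plus strand. The matched letters are in capitals, as the reverse complement of the motif in Rsad2 and Stat2.
Rsad2: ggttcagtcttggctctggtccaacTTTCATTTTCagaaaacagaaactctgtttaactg
Stat2: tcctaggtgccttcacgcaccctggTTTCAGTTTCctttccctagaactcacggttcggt
B2m: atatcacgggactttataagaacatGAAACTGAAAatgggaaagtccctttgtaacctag
The match begins 120, 222 and 139 bases before the start of Rsad2, Stat2 and B2m. Here too a match describes the letters and not binding.

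Immune cells also make interferon-stimulated genes, and their markers are given beside this group. Of 13 tested monocyte, macrophage and dendritic cell genes of 17 in the table, 11 were higher, with a median log2 fold change of 0.69, and their summed level was 68.5 to 117 CPM with vehicle and 96.7 to 197 CPM with glutamine. Lyz2, the lysozyme of myeloid cells, had 2.56, 1.61 and 1.12 CPM with vehicle and 4.43, 12.4 and 3.93 CPM with glutamine, while Csf1r had a log2 fold change of -0.09. Of 7 tested neutrophil genes of 14 in the table, 6 were higher (median 0.79, changing sign relative to all genes with 1 library left out), with a summed level of 102 to 252 CPM with vehicle and 120 to 267 CPM with glutamine. Ptprc was at 1.47, 1.52 and 0.102 CPM with vehicle and 2.27, 1.80 and 2.73 CPM with glutamine, so its groups were apart at a level of few counts. Of 14 lymphocyte genes, 1 passed the filter. The part of such cells in the interferon values was not tested.

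Circadian clock genes tended to be higher. Of 20 tested, 14 were higher and 6 lower (median log2 fold change 0.38), and 5 were higher at an unadjusted p-value below 0.05, against 7.23% of all tested genes. Rora, a nuclear receptor that drives the clock, had 70.8, 114 and 127 CPM with vehicle and 165, 213 and 244 CPM with glutamine, a log2 fold change of 1.0 ± 0.26 (SE). Usp2, a deubiquitinase with a circadian rhythm, had 21.7, 21.5 and 32.7 CPM and then 41.7, 79.0 and 46.4 CPM, a log2 fold change of 1.13 ± 0.30 (SE). The groups were apart in both genes. Per1, a core repressor of the clock, had 44.0, 87.7 and 174 CPM with vehicle and 86.0, 130 and 202 CPM with glutamine, so its libraries differed within each group by more than between the groups. The clock time of each collection is not given in the sources used here.

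Genes that mark the proximal tubule were mostly higher with glutamine. Of 28 tested proximal tubule genes, 21 were higher and 7 lower (median log2 fold change 0.28), and 5 were higher and 0 lower at an unadjusted p-value below 0.05, against 7.23% and 5.52% of all tested genes. In 3 of 28 (10.7%) the groups did not overlap upward, against 9.0% of all tested genes. Their summed level was 19497, 19311 and 18525 CPM with vehicle and 17903, 15745 and 24667 CPM with glutamine. Glutamine replicates 1 and 2 thus lay below every vehicle library in the sum. Ggt1, the brush border enzyme that breaks down glutathione, had 301, 267 and 290 CPM with vehicle and 461, 384 and 437 CPM with glutamine, a log2 fold change of 0.58 ± 0.18 (SE). Fxyd2, a regulator of the sodium pump, had 2290, 2050 and 2773 CPM and then 2560, 2738 and 2886 CPM, a log2 fold change of 0.20 ± 0.20 (SE). Slc7a13 and Kap, given above, were the highest and among the 7 lower genes of this list. For Ggt1 the groups were apart, and for Fxyd2 they overlapped.

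Medians of distal segments were also above 0, with fewer genes and with members in both directions outside the distal convoluted and connecting tubule. All 11 tested genes of the distal convoluted and connecting tubule had log2 fold changes above 0, with a median of 0.46. In 1 of 11 (9.1%) the groups did not overlap upward, against 9.0% of all tested genes. Fxyd2 is counted both here and in the proximal list. Calb1, the calcium buffer calbindin, had 26.9, 25.7 and 25.4 CPM with vehicle and 45.5, 46.4 and 41.0 CPM with glutamine, a log2 fold change of 0.77 ± 0.21 (SE). Pvalb, parvalbumin of the distal convoluted tubule, had 2.06, 1.43 and 8.94 CPM and then 15.4, 21.2 and 5.57 CPM with overlap, and Klk1, tissue kallikrein, had a log2 fold change of 0.38 ± 0.25 (SE). Calb1 was close to constant within each group. Of 14 genes of the thin and thick ascending limb, 10 were higher and 4 lower, with a median of 0.24. In 2 of them the groups did not overlap upward and in 2 downward (14.3% each), against 9.0% and 9.82% of all tested genes. Akr1b3, given above with a log2 fold change of -1.75, is a member of this list. Slc12a1, the sodium-potassium-chloride cotransporter, had 38.1, 44.8 and 37.9 CPM with vehicle and 52.8, 142 and 104 CPM with glutamine, a log2 fold change of 1.30 ± 0.32 (SE), while Umod had 0.14 ± 0.30 and Aqp1, the water channel of the proximal tubule and thin limb, -0.73 ± 0.35 (SE). Aqp1 belongs to both lists and rests on vehicle replicate 4, with 1554, 3724 and 1865 CPM and then 903, 1480 and 1933 CPM. Of 13 collecting duct genes, 8 were higher and 5 lower, with a median of 0.10 and overlapping groups in every gene. Relative to all genes that median ranged from -0.367 to 0.486 with 1 library left out.

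Solute carriers as a family had a median near that of all genes. Of 269 tested, 146 were higher and 123 lower (median log2 fold change 0.06). The share of all 382 carriers in the table was 1.35 ± 0.0248% of counts in vehicle libraries and 1.36 ± 0.0838% in glutamine libraries (SD, n = 3; two-sided p = 0.9 by exact permutation). This share is taken of all counts, including the 3 left-out classes, whose own share was larger with glutamine. The summed level of the tested carriers was 12350, 12004 and 13726 CPM with vehicle and 13281, 14437 and 15344 CPM with glutamine, with overlap. Slc22a23, an orphan carrier, had 16.0, 22 and 25.3 CPM with vehicle and 36.2, 43.4 and 54.3 CPM with glutamine, a log2 fold change of 1.08 ± 0.26 (SE), and its groups were apart. Slc34a1 had a log2 fold change of 0.54 ± 0.27 and the urate transporter Slc22a12 one of -0.21 ± 0.27 (SE).

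Respiratory chain genes lay slightly above the median of all genes. Of 30 complex I subunits, 19 were higher and 11 lower (median log2 fold change 0.11), of 23 subunits of complexes II to IV with cytochrome c 20 were higher and 3 lower (0.14), and of 17 ATP synthase subunits 14 were higher and 3 lower (0.09). At an unadjusted p-value below 0.05, 1 gene of the 3 lists was lower, Ndufb3, with 152, 202 and 153 CPM with vehicle and 103, 104 and 147 CPM with glutamine, and 0 were higher. Ndufa2, with 717, 587 and 756 CPM and then 788, 1040 and 805 CPM, Uqcr11 and Atp5e had log2 fold changes of 0.35, 0.35 and 0.45. All 3 had unadjusted p-values above 0.05. The median transcript lengths of the 3 lists were 1186.5, 1231 and 1553.5 bases. Of 22 fatty acid oxidation enzymes, 15 were lower and 7 higher, with a median of -0.23, and 0 had an unadjusted p-value below 0.05 in the quasi-likelihood test. Acadl, the long-chain acyl-CoA dehydrogenase, had 160, 173 and 134 CPM with vehicle and 112, 114 and 127 CPM with glutamine, a log2 fold change of -0.40 ± 0.19 (SE), and Hadhb had -0.38 ± 0.22 (SE).

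Chromatin modifiers, which are long genes with a median transcript of 8350 bases, were mostly higher. Of 37 tested, 25 were higher and 12 lower (median log2 fold change 0.20). Kmt2a, a histone H3 lysine methyltransferase, had 48.6, 37.4 and 49.9 CPM with vehicle and 83.3, 76.2 and 58.8 CPM with glutamine, a log2 fold change of 0.68 ± 0.23 (SE). Smarca2, an ATPase of the SWI/SNF remodeler, had 54.6, 49.0 and 54.9 CPM and then 82.8, 95.9 and 68.2 CPM, a log2 fold change of 0.64 ± 0.21 (SE). The groups were apart in both, and in Crebbp and Chd4, with log2 fold changes of 0.54 and 0.38, they overlapped. Length and this list move together here, and their parts were not separated.

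The libraries of a group were not equally far from the other group. Over the 7509 genes with a mean of 10 CPM or more, log2 CPM correlated at 0.955 between vehicle replicates 3 and 4, at 0.953 between vehicle replicate 5 and glutamine replicate 3, and at 0.894 between vehicle replicate 3 and glutamine replicate 2, as a description across genes. The median SD within a group was 0.276 with vehicle and 0.277 with glutamine on the log2 scale. Among the 763 consistent genes, vehicle replicate 5 was the vehicle library nearest the glutamine mean in 473 (62.0%), against 145 each for the other two. Over all 7509 genes it was nearest in 46.0%. Glutamine replicate 2 was the library farthest from the vehicle mean in 358 (46.9%), glutamine replicate 1 in 231 and glutamine replicate 3 in 174. Without vehicle replicate 5, 882 genes were higher and 1061 lower at an unadjusted p-value below 0.05, and without vehicle replicate 4 there were 333 and 385.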

How the data were processed

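Estimated counts per gene, deposited by the authors, were made from 50-base reads with Trim Galore 0.6.4, Salmon 1.0.0 and mm10 per the submitters' processing notes. Strand use is not given in the sources used here. Counts were rounded to whole numbers. Genes passing edgeR's filterByExpr were fitted in the 6 libraries (edgeR 4.0.16, R 4.3.3) with TMM factors, the quasi-likelihood test and Benjamini-Hochberg adjustment, without a block. The code of the fit was also run on simulated counts, which enter no result given here. Shares of counts were compared by exact permutation. Alternatives were DESeq2 1.42.0, limma-voom 3.58.1, other scalings and filters, and each library left out. Coordinates and lengths came from GENCODE (GRCm38) by symbol, and promoters from RefSeq (GRCm38.p6).

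Genes were named by rule: the 12 with the most counts, the 10 largest consistent differences each way from 10 CPM and 6 from 100 CPM, the 10 smallest p-values, and in each list the 2 most abundant genes and the 2 smallest p-values. Members and lists were chosen with earlier results of these data known. The 12 neutrophil columns were not used here. A few genes that the rule names are not reported here.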

Additional observations from a re-analysis of the deposited data

How the results depend on the processing

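The number of genes called at an adjusted p-value below 0.05 was 0 by edgeR, 308 with DESeq2 (235 higher, 73 lower), 425 with no filter beyond 1 count (309 higher, 116 lower), and 0 to 36 with 1 library left out, with 4 called without vehicle replicate 5 and 36 without glutamine replicate 2. Unadjusted p-values were below 0.05 in 1879 genes, in 3069 with no filter, and in 1281 to 2748 with 1 library left out. The difference in the share of counts of the 50 most abundant genes, -0.180 percentage points, was 2.13 with the 3 left-out classes removed from the total, and -0.751 to 0.770 with 1 library left out. That of solute carriers, 0.0111 percentage points, was -0.0342 to 0.0485 with 1 library left out. The cause of these differences between settings was not tested.

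Of 113 genes described, markers given only as ranges apart, 10 had a log2 fold change of the other sign in some setting. Among those markers, with 1 library left out, Hbb-bs (0.57) ranged from -0.72 to 1.49, S100a8 (0.79) from -0.10 to 1.99, Aqp2 (0.32) from -0.36 to 0.60 and Cdh5 (-0.30) from -0.56 to 0.01. Under TMM factors without the 3 left-out classes the value was 0.016 for Actb, 0.035 for B2m, 0.057 for Polr2f and 0.007 for Polr2l, and in the fit without those classes 0.011, 0.028, 0.050 and 0.001. For Polr2f it was 0.007 with DESeq2, 0.006 with RLE size factors and 0.008 with at least 10 counts in every library. Under total counts it was -0.045 for Mrpl12 and -0.051 for Umod. With 1 library left out, values ranged from -0.29 to 0.20 for Actb, from -0.13 to 0.14 for B2m, from -0.40 to 0.065 for Csf1r, from -0.54 to 0.16 for Kap, from -0.055 to 0.23 for Mrpl12, from -0.047 to 0.052 for Polr2f, from -0.15 to 0.14 for Polr2l, from -0.20 to 0.005 for Psmd11, from -0.47 to 0.029 for Slc22a12 and from -0.16 to 0.48 for Umod. The 33 genes named for size or smallest p-value kept their sign in all 15 alternatives, and 26 of them passed an adjusted p-value of 0.05 with DESeq2. They were chosen from these same libraries by groups that did not overlap or by small p-values. Both counts are therefore in part set by that choice and are no separate test of these genes.

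No paired analysis was made because the labels give no pairing between vehicle and glutamine libraries of TECs. Glutamine replicate 2 was the shallowest library, and genes of few counts are the least precise there.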
